A study of Mus musculus with 8 samples.

Results

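Red blood cells owe their shape and strength to a protein network under the plasma membrane, and 8 genes of that membrane were followed here in RNA-seq of embryonic mouse ventricles. The genes were chosen by symbol, as Sptb, Ank1, Slc4a1, Epb42, Rhag, Add2, Kel and Ermap, from a table of 53465 genes, and all 8 were present and passed the filter on low counts. The samples were heart ventricles taken at embryonic day 9.5 from 4 wild-type (WT) samples and 4 samples of genotype Nrg-1flox;Tie2-Cre, called mutant below. In the mutant, the gene for the growth factor neuregulin 1 (Nrg1) carries the flox allele and is combined with Cre expressed from Tie2, a driver known for endothelial cells including the endocardium and known also to be active in blood-forming cells. The labels give no strain, no sex, no number of embryos per sample and no further alleles of the WT samples. Nor do they say whether samples came from separate embryos or pools, so p-values measure the spread between these samples. The question addressed was how much red-cell material the ventricles of each genotype held, judged by genes other than the hemoglobins.

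Beneath the red-cell membrane, spectrin forms long flexible molecules that are tied at their ends to short actin filaments, with adducin capping those filaments. Ankyrin links beta spectrin to the anion exchanger band 3, protein 4.2 strengthens that link, and Rh-associated glycoprotein and the Kell and Scianna blood-group proteins sit in the membrane around these anchors. At this stage the circulating red cells are primitive erythroblasts made in the yolk sac, which still hold a nucleus and RNA, and blood in the ventricular lumen can enter a dissected sample. Loss of spectrin, ankyrin, band 3 or protein 4.2 is the textbook cause of hereditary spherocytosis and related anemias.

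Because the 8 genes moved together, the sequence before their start sites is shown. In the RefSeq promoter windows (GRCm38.p6, from 250 bases before to 50 bases after the start), 6 of 8 genes matched by symbol, and Ank1 and Slc4a1 are named only. Both strands were searched for the letters AGATAA or AGATAG or TGATAA or TGATAG, which match the core recognised by GATA factors such as the erythroid regulator Gata1. All 6 windows held at least 1 match, against 29.8% of 32851 windows of all genes. The share was 83.3% of 6 hemoglobin windows, 53.3% of 15 windows of erythroid regulators, 27.3% of 44 windows of a wider list of red-cell membrane genes, 31.2% of 16 windows of cardiomyocyte genes and 15.6% of 45 windows of non-erythroid relatives. The windows of Kel (chr6:41704276-41704575, minus strand), Rhag (chr17:40810899-40811198, plus strand) and Ermap (chr4:119189946-119190245, minus strand) are printed because their matches lie within 100 bases before the start, with the matched letters in capitals.
Kel: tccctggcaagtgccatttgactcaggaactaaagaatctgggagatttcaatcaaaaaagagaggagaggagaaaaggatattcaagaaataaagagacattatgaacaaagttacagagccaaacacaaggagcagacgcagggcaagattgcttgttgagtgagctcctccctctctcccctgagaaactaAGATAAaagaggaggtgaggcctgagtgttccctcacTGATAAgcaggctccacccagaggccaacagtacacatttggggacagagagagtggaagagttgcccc
Rhag: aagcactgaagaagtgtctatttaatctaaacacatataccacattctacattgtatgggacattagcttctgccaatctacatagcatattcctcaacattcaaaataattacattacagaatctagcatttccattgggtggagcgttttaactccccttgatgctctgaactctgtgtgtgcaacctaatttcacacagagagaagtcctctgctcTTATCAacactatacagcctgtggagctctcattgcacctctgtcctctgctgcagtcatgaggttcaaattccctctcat
Ermap: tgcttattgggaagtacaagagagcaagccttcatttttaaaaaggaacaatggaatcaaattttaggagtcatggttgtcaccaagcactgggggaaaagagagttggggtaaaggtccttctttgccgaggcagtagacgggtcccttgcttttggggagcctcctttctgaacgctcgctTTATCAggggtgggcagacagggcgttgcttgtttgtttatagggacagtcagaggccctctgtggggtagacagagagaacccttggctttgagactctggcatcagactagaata
The Kel window held 2 matches, which began 56 and 19 bases before the RefSeq start. The single matches in Rhag and Ermap began 31 and 67 bases before it, each read on the opposite strand. In Epb42 and Add2 the match began 226 and 234 bases before the start, and in Sptb it began 12 bases after it. Letters of the CACCC type bound by Klf1, spelled CCNCNCCC, were found on either strand in 2 of the 6 windows, those of Sptb and Add2, against 49.5% of all windows and 50% (hemoglobin) to 81.2% (cardiomyocyte) in these other lists. These are matches of letters and not measured binding sites, and the windows were searched after the genes had been chosen.

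The targeted gene was checked first. Nrg1 lay between 9.38 and 11.9 TMM-normalized CPM (counts scaled to library size) in the 4 WT samples and between 4.27 and 5.93 CPM in the 4 mutant samples. It fell by 1.07 on the log2 scale (SE 0.14, edgeR quasi-likelihood test, adjusted p = 0.00268), with no overlap between the genotypes. Libraries held 11852372 to 14360323 counts. Hemoglobin genes took 0.671% to 0.799% of counts in WT and 1.93% to 6.26% in the mutant, the lowest in mutant replicate 2 and the highest in mutant replicate 1, and the same 2 libraries were the lowest and highest mutants for each of the 8 red-cell membrane genes. The cardiomyocyte list, checked for the labelled tissue, had 0 of 12 genes called by edgeR at an adjusted p under 0.05, with 1 at an unadjusted p under 0.05, 1 called by DESeq2 and 0 by limma-voom. Over all 14451 genes tested, edgeR called 739 higher and 506 lower, and 3607 had an unadjusted p under 0.05. Tnnt2, the cardiac troponin T gene, averaged 2358 CPM in WT and 2232 CPM in the mutant.

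All 8 red-cell membrane genes rose in the mutant ventricles. The increases ran from 3.49-fold for Sptb to 5.74-fold for Rhag, and every mutant sample was above every WT sample for each of them. Of 14451 genes tested by edgeR, 5.11% were called higher and 3.50% lower, and 9.52% had all mutant samples above all WT samples. The median log2 change was 2.32 over the 8 genes and -0.0014 over all genes tested. In bulk tissue, more red cells and more of this RNA per red cell cannot be told apart. The 8 genes come from the same samples and are not replicates of one another.

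**Figure D1:**
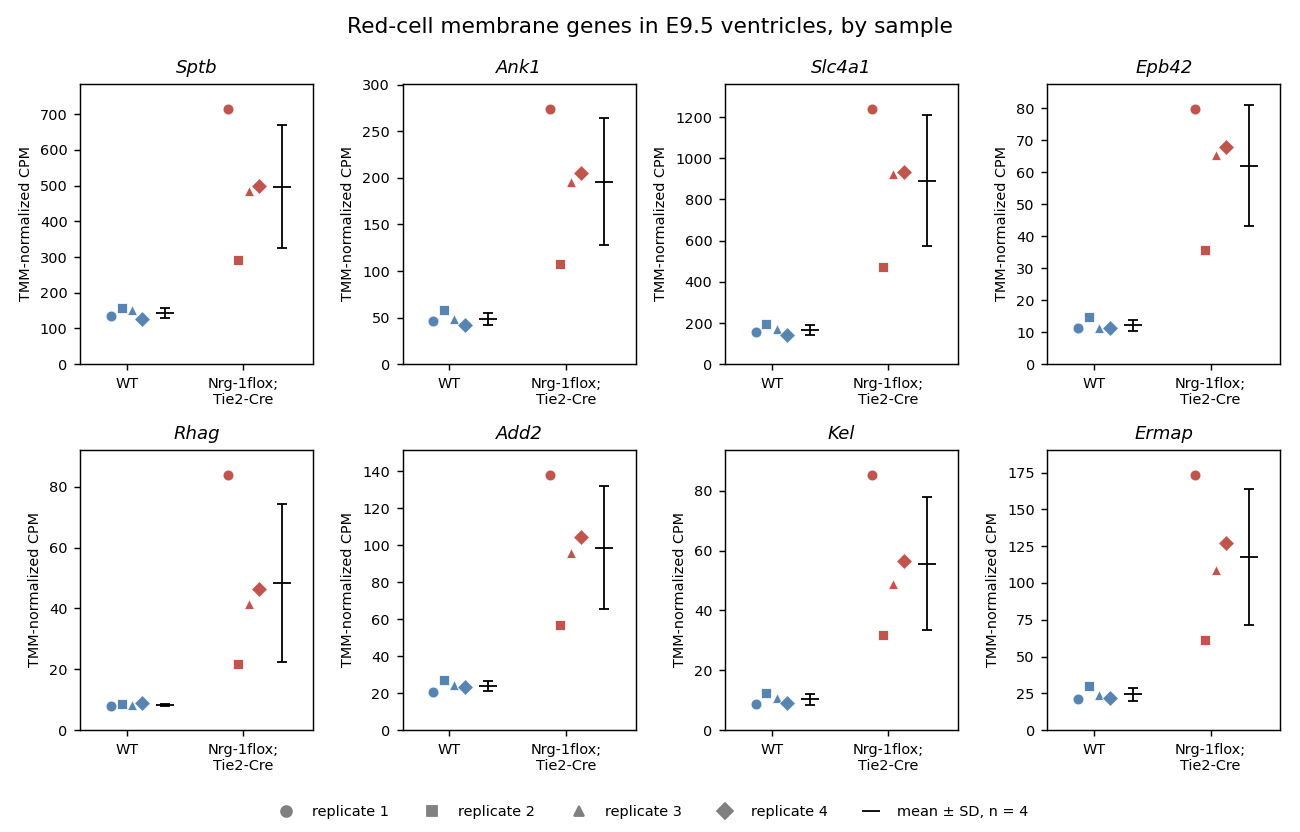
Each panel plots 1 gene on a linear axis of TMM-normalized CPM, with 4 WT samples in blue, 4 Nrg-1flox;Tie2-Cre samples in red, the marker shape giving the replicate number, and the bar giving the mean ± SD of 4. In every panel the lowest red point, mutant replicate 2, lies above the highest blue point, and mutant replicate 1 is the highest.

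Slc4a1, which encodes band 3, the anion exchanger that swaps chloride for bicarbonate and anchors the skeleton, was the most abundant of the 8 per length. Its CPM were 155, 196, 169 and 142 in WT replicates 1 to 4 and 1238, 469.95, 924 and 933 in mutant replicates 1 to 4. Mutant replicate 1 stood highest and mutant replicate 2 lowest, still 2.40 times the highest WT sample. The log2 change was 2.43 (SE 0.25, edgeR adjusted p = 0.00152). Epb42, the gene of protein 4.2, which binds band 3 and ankyrin and is a relative of the transglutaminases without their activity, measured 11.4, 14.7, 11.2 and 11.2 CPM in WT and 79.8, 35.6, 65.4 and 67.8 CPM in the mutant. Its WT samples were tight except for replicate 2, and its log2 change was 2.35 (SE 0.23, edgeR adjusted p = 0.00125). The spread within the mutants, highest over lowest sample, was 2.24-fold for Epb42, the smallest of the 8 genes.

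The 3 smallest log2 changes of the 8 were those of the skeleton genes Sptb, Ank1 and Add2, although changes were not tested against each other between genes. Sptb, which encodes the beta spectrin of red cells, measured 134, 157, 151 and 128 CPM in WT and 714, 292, 483 and 499.7 CPM in the mutant. The groups were apart, although mutant replicate 2 was only 1.85 times the highest WT sample, the narrowest gap of the 8, and the log2 change was 1.80 (SE 0.22, edgeR adjusted p = 0.0021). Ank1, the ankyrin that ties spectrin to band 3, had 46.7, 58.0, 48.0 and 42.6 CPM in WT and 274, 108, 196 and 205 CPM in the mutant. WT replicate 2 was again the highest of its group, and the log2 change of Ank1 was 2.002 (SE 0.24, edgeR adjusted p = 0.00185). Add2, beta adducin, a subunit of the complex that caps actin filaments and joins them to spectrin, had 20.5, 26.9, 24.4 and 23.3 CPM in WT and 138, 56.6, 95.8 and 105 CPM in the mutant. Its samples fell in the same order among the mutants as those of Ank1, and its log2 change was 2.05 (SE 0.23, edgeR adjusted p = 0.00177).

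Of the surface proteins, Rhag, whose product is required for the Rh complex to reach the membrane and conducts ammonia or gas, had the tightest WT group and the widest mutant group. It measured 8.10, 8.45, 8.22 and 8.79 CPM in WT and 83.9, 21.9, 41.4 and 46.3 CPM in the mutant. Mutant replicate 1 was 3.84 times mutant replicate 2, the widest spread of the 8 genes, and the log2 change of Rhag was 2.52 (SE 0.35, edgeR adjusted p = 0.00307). Kel encodes the Kell antigen, a membrane endopeptidase that cleaves big endothelins, and measured 8.78, 12.4, 10.8 and 8.99 CPM in WT and 85.2, 31.8, 49.0 and 56.6 CPM in the mutant. Its lowest mutant sample was 2.56 times its highest WT sample, the widest gap of the 8, with a log2 change of 2.44 (SE 0.27, edgeR adjusted p = 0.00177). Ermap, the Scianna blood-group antigen, an immunoglobulin-type protein of erythroid membranes, had 21.4, 30.2, 23.8 and 21.6 CPM in WT and 173, 61.5, 109 and 127 CPM in the mutant. WT replicate 2 stood above the other WT samples, and the log2 change of Ermap was 2.28 (SE 0.27, edgeR adjusted p = 0.00188).

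The order of samples was shared. All 8 genes were highest in mutant replicate 1 and lowest in mutant replicate 2, an order found in 12.8% of the genes tested. Among WT samples, 7 of the 8 were highest in replicate 2, and Rhag was highest in replicate 4. Summed over the 8 genes, WT replicates 1 to 4 held 406, 504, 447 and 386 CPM and mutant replicates 1 to 4 held 2786, 1077, 1964 and 2040 CPM. Within each genotype the samples ranked by this sum as they ranked by hemoglobin share, with replicates 2, 3, 1 and 4 in descending order in WT and replicates 1, 4, 3 and 2 in the mutant. No correlation is given, because the samples form separate clusters by genotype.

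Compared per kilobase of transcript, the levels of the 8 genes differed widely. In WT, Slc4a1 stood at 36.4 ± 5.03 CPM per kb (SD, n = 4) and Sptb at 13.7 ± 1.35. Ank1 at 5.94 ± 0.793 and Ermap at 5.33 ± 0.909 followed with overlapping ranges. Kel (4.05 ± 0.673), Rhag (3.59 ± 0.130), Epb42 (2.94 ± 0.417) and Add2 (2.91 ± 0.320) were lowest, and each overlapped its neighbours in this order. In the mutant, Slc4a1 reached 196 ± 69.7 CPM per kb and Sptb 47.8 ± 16.6, followed by Ermap (25.9 ± 10.2) and Ank1 (23.8 ± 8.28). Compared within samples, Ank1 was above Ermap in all 4 WT samples and below it in all 4 mutant samples, by a very small margin in mutant replicate 3. Slc4a1 was above Sptb without overlap in both genotypes. Lengths are those of the transcript with the longest coding sequence in GENCODE M21, from 2339 bases for Rhag to 10394 bases for Sptb, and another isoform would shift a level without altering a fold change.

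The gene positions are given on GRCm38 with the same annotation. Sptb spans chr12:76580488-76710547 on the minus strand, Ank1 chr8:22974844-23150497 on the plus strand and Slc4a1 chr11:102348824-102366203 on the minus strand. Epb42 lies at chr2:121017891-121037072 on the minus strand, Rhag at chr17:40811126-40840754 on the plus strand and Add2 at chr6:86028681-86124409 on the plus strand. Kel shares chromosome 6, at chr6:41686330-41704339 on the minus strand, and Ermap lies at chr4:119175457-119190011 on the minus strand. Of the genes that overlap them, Plekhg3, on the strand opposite Sptb, held 249 to 386 counts per sample against at least 1750 for Sptb. Gm37527, on the strand of Kel, held 4 to 101 counts against at least 115 for Kel, and the antisense Gm15816 held 2.9 to 23.6 counts against at least 584 for Ank1. The use of strand in counting is not given in the sources used here, so reads in these overlaps cannot be told apart.

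Hemoglobin of the same sample was then taken as the reference for red-cell content. Slc4a1, Epb42, Rhag and Kel overlapped between the genotypes when expressed per 1000 hemoglobin counts. The means of these 4 genes in the mutant were 0.960, 0.935, 0.962 and 0.967 of the WT means. For Sptb, Ank1, Add2 and Ermap every mutant sample was below every WT sample, as was the case for 96.0% of all genes tested. The ratios were not tested, and the hemoglobin counts in them carry the spread of mutant replicate 1.

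Per 1000 hemoglobin counts, Slc4a1 measured 23.6, 24.9, 23.5 and 21.9 in WT replicates 1 to 4 and 18.5, 24.4, 23.8 and 23.4 in the mutant, where replicate 1 alone lay under the WT range. Rhag measured 1.23, 1.07, 1.14 and 1.35 in WT and 1.25, 1.14, 1.07 and 1.16 in the mutant. The mutant range of Rhag lay almost wholly inside its WT range. Sptb measured 20.3, 19.997, 20.9 and 19.6 in WT and 10.6, 15.2, 12.4 and 12.5 in the mutant, so that its mean ratio was 0.628 of WT, the lowest of the 8. Ank1 followed at 0.718, Add2 at 0.747 and Ermap at 0.858 of the WT mean. For the 8 genes summed the mutant held 0.807 of the WT ratio, with 59.3 to 64.0 per 1000 in WT and 41.5 to 56.0 in the mutant.

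**Figure D2:**
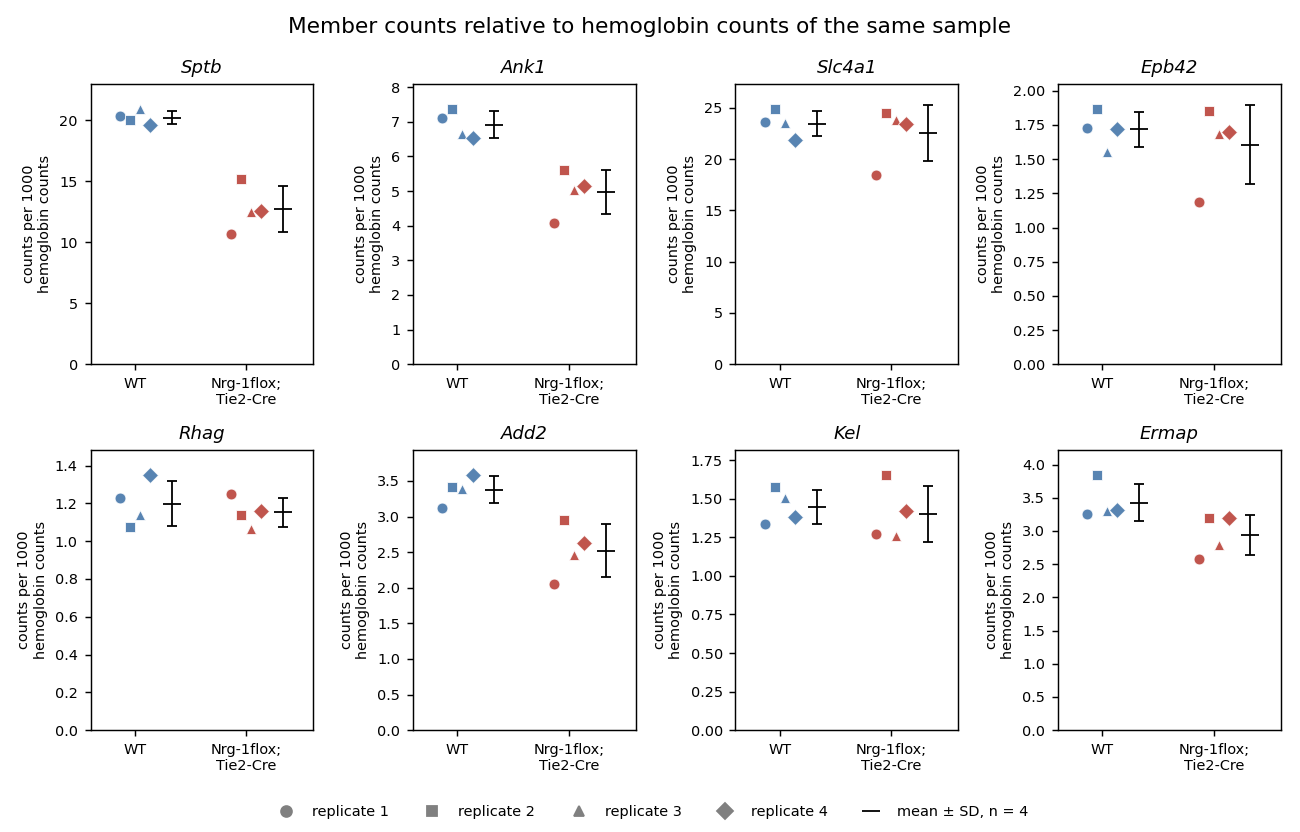
Each panel plots the counts of 1 gene per 1000 hemoglobin counts of the same sample, on a linear axis, for 4 WT samples (blue) and 4 Nrg-1flox;Tie2-Cre samples (red) with the mean ± SD of 4. The groups overlap for Slc4a1, Epb42, Rhag and Kel, and the red points lie below the blue points for Sptb, Ank1, Add2 and Ermap.

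Genes whose products meet in 1 complex were then set against each other as ratios of CPM per kb, which need no hemoglobin value. These pairs were chosen after the values had been seen, and the ratios were not tested. Epb42 over Slc4a1 was 0.0810 ± 0.00595 in WT and 0.0783 ± 0.00531 in the mutant (SD, n = 4), and the groups overlapped. Rhag over Rhd, its partner in the Rh complex, was 0.885 ± 0.165 in WT and 0.926 ± 0.0951 in the mutant, again with overlap. Ank1 over Slc4a1 was lower in every mutant sample, at 0.163 ± 0.00443 in WT and 0.122 ± 0.00396 in the mutant. Sptb over Slc4a1 was likewise lower, at 0.377 ± 0.0183 in WT and 0.247 ± 0.0193 in the mutant. Add2 over Add1, its partner subunit in adducin, was 0.0450 ± 0.00373 in WT and 0.155 ± 0.0536 in the mutant, without overlap. Kel over Xk, the transporter-like protein joined to Kell by a disulphide bond, was 1.998 ± 0.393 in WT and 3.51 ± 0.262 in the mutant, also without overlap. The RNA of all cells in a sample enters these ratios, and Xk rose 3.12-fold and Add1 1.20-fold. The ratios therefore do not give proportions within red cells, which were not measured.

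Sptb, Ank1 and Add2 belong to families whose other members serve most tissues. Bulk counts do not show which cells of the ventricle held the RNA of these 3 genes. Of 30 non-erythroid relatives, 24 were tested by edgeR, of which 1 was higher, 3 were lower and 20 were not called, with a median log2 change of -0.07, where 5.11% of all genes tested were called higher and 3.50% lower. Sptbn1, the general beta spectrin, averaged 780 ± 35.7 CPM in WT and 750.3 ± 107 CPM in the mutant, with an edgeR adjusted p of 0.746. Sptan1, its partner, averaged 523 ± 19.3 and 510.1 ± 26.0 CPM, and Epb41l2, a general relative of protein 4.1, averaged 127 ± 3.11 and 118 ± 7.20 CPM. Add1, alpha adducin, rose by 0.27 on the log2 scale (SE 0.06, edgeR adjusted p = 0.0183), while Add3, gamma adducin, fell by 0.33 (SE 0.07, edgeR adjusted p = 0.0251). Ank3, an ankyrin of epithelia, muscle and neurons, fell by 0.32 (SE 0.07, edgeR adjusted p = 0.0297), and Ank2 measured 53.0 ± 3.09 and 47.5 ± 2.62 CPM without passing the test (adjusted p = 0.165). The third gene that fell was Ece1, an endopeptidase related to Kel, at a log2 change of -0.27 (SE 0.07, edgeR adjusted p = 0.0478), named after its value was seen. Slc4a2, Slc4a3 and Tgm2 also did not pass, at log2 changes of 0.13, -0.09 and 0.06. The calls of Add1, Add3 and Ank3 were lost when single samples were left out, with adjusted p up to 0.0740, 0.0744 and 0.0931. Of the 3 relatives that fell, 0 were called without mutant replicate 4 or any WT replicate, 1 without mutant replicate 3 or with the replicate number as a block, and 2 without mutant replicate 2 or without hemoglobin and mitochondrial genes.

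**Figure D3:**
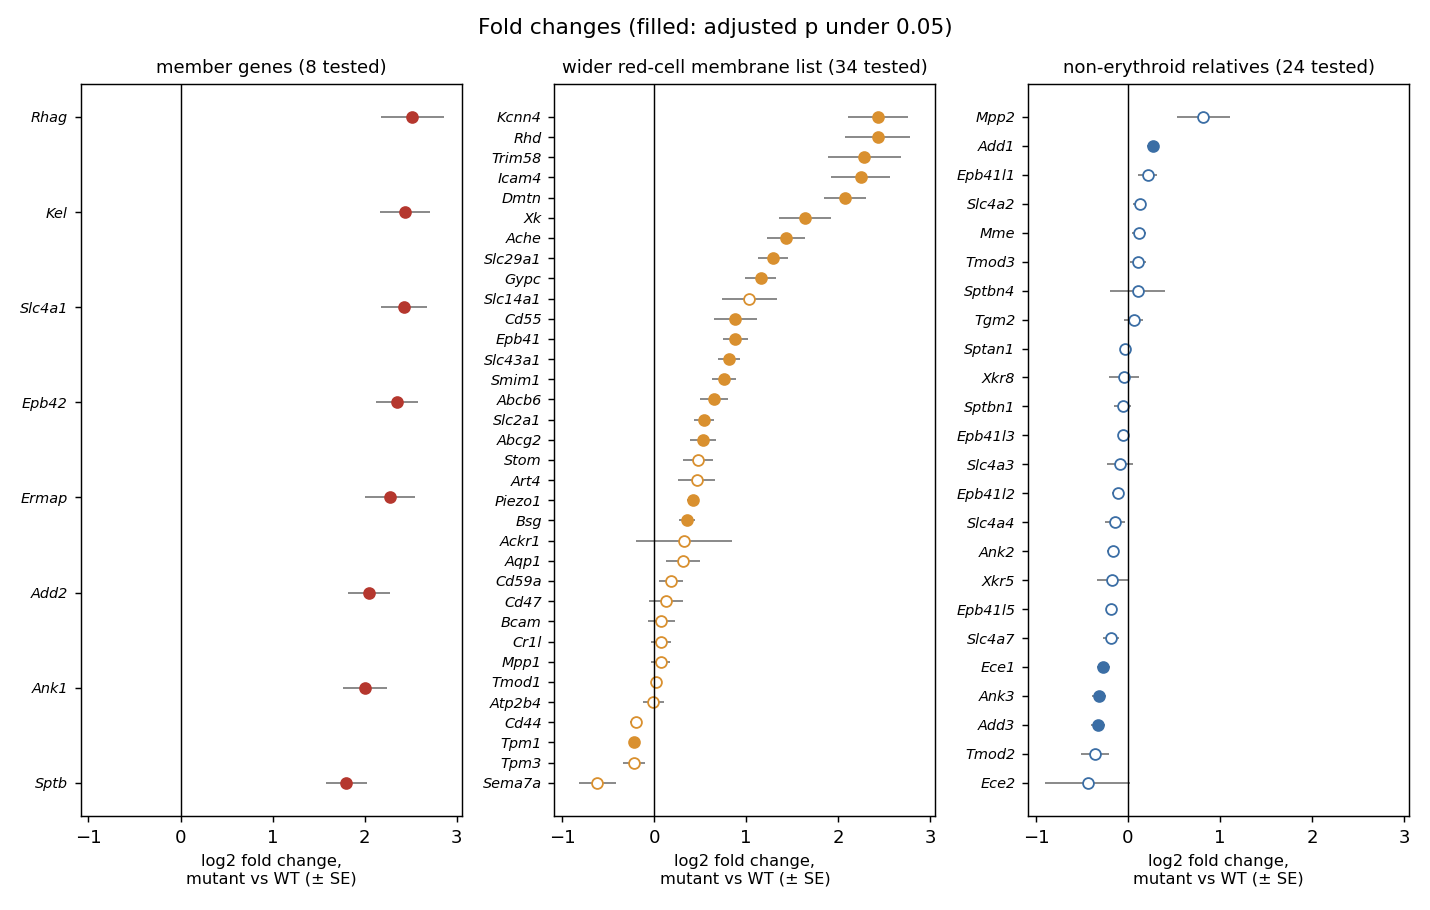
Log2 fold changes of the mutant against WT (x axis, bars ± SE from edgeR) are plotted for the 8 genes, the 34 tested genes of a wider red-cell membrane list and the 24 tested non-erythroid relatives, with filled points for an adjusted p under 0.05. The 8 genes lie between 1.80 and 2.52, the wider list runs from -0.62 to 2.43, and the relatives lie between -0.44 and 0.82.

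The share that the red-cell form took of its family was computed per length, a measure added after the data had been seen and not tested. Sptb made up 12.9% ± 0.663 of Sptb, Sptbn1 and Sptbn4 in WT and 34.4% ± 7.18 in the mutant (SD, n = 4). Ank1 made up 13.1% ± 1.78 of Ank1, Ank2 and Ank3 in WT and 41.7% ± 9.30 in the mutant. Add2 made up 1.94% ± 0.167 of the adducins in WT and 7.79% ± 2.80 in the mutant, so that Add1 and Add3 stayed the main adducins in both. Slc4a1 was already the main anion exchanger of the 3 compared in WT, at 63.9% ± 3.04, and took 89.0% ± 4.77 in the mutant. Epb42 was 3.56% ± 0.364 of Epb42 and Tgm2 in WT and 15.2% ± 4.13 in the mutant. In all 5 families every mutant sample was above every WT sample. This follows from the rises already given for the 5 genes, beside relatives that changed little, and is not a separate result.

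**Figure D4:**
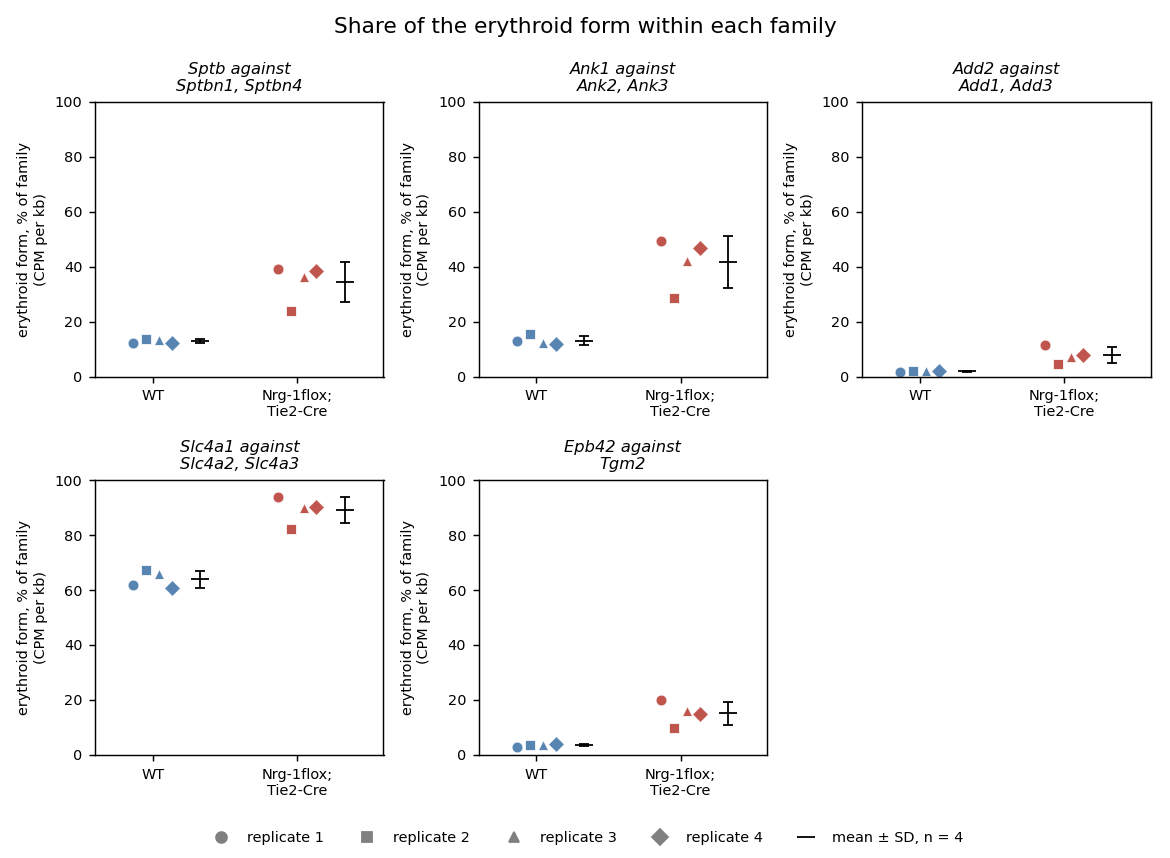
The y axis gives the percentage of a family's summed CPM per kb that belongs to its red-cell form, from 0 to 100, for 4 WT (blue) and 4 Nrg-1flox;Tie2-Cre (red) samples with the mean ± SD of 4. Mutant replicate 2 is the lowest red point in each family and still lies above the blue points, and only Slc4a1 forms most of its family in both genotypes.

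The rest of the red-cell membrane was read from a wider list of 35 genes. Of its 34 tested genes, edgeR called 18 higher, 1 lower and 15 neither, with a median log2 change of 0.50, against 5.11% of all genes tested called higher and 3.50% lower. Several changes lay near those of the 8 genes. The largest was that of Kcnn4, the Gardos potassium channel, at 2.43 (SE 0.33), and Trim58, a ubiquitin ligase of late erythroblasts, reached 2.28 (SE 0.40), both called by edgeR and named after their values were seen. Trim58 lay near the floor of detection in WT, at 3 to 11 counts per sample against 18 to 37 in the mutant. Rhd, the Rh antigen carrier, rose by 2.43 on the log2 scale (SE 0.35), from 6.28 ± 1.04 to 33.9 ± 16.6 CPM. Icam4, the Landsteiner-Wiener adhesion protein, rose by 2.24 (SE 0.32), and Dmtn, the actin bundler dematin, by 2.08 (SE 0.23). The edgeR adjusted p of these 3 genes ran from 0.00177 to 0.00369.

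The other genes named from this list had smaller changes. Xk rose by 1.64 (SE 0.28), Gypc, the glycophorin that binds protein 4.1, by 1.16 (SE 0.17), Epb41, protein 4.1 itself, by 0.88 (SE 0.13) and Smim1, the Vel antigen, by 0.76 (SE 0.13), with edgeR adjusted p from 0.00361 to 0.00756. Slc14a1, the urea transporter, averaged 1.95 ± 0.486 CPM in WT and 4.03 ± 1.64 CPM in the mutant and did not pass (adjusted p = 0.0605), although its groups were apart. Tmod1, the tropomodulin that caps pointed ends of actin in red cells and in heart muscle, measured 333 ± 11.4 and 337 ± 12.9 CPM. Mpp1, the scaffold p55, measured 14.6 ± 1.40 and 15.3 ± 1.47 CPM, and Aqp1, a water channel shared with endothelium, 9.76 ± 2.16 and 12.2 ± 2.64 CPM. Ackr1, the Duffy antigen, was near the floor of detection in both genotypes, at 0.588 ± 0.460 and 0.761 ± 0.125 CPM. The gene that fell was Tpm1, a tropomyosin abundant in heart muscle, with a log2 change of -0.22 (SE 0.05, edgeR adjusted p = 0.0303), named after its value was seen. Its call was lost with the replicate number as a block, and without mutant replicates 3 or 4 or any WT replicate.

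Genes with a profile like that of the 8 were then ranked. Likeness was measured as the root mean square difference between a gene's centred log2 CPM and the mean of the 8 genes over the 8 samples, which was 1.16 for the median gene tested. Among the 10 nearest genes were Acp5 (0.0812), Gata1 (0.0889), Slc38a5 (0.101), Mfsd2b (0.110), Treml2 (0.114), Ikzf1 (0.121), 1300017J02Rik (0.122) and Slc25a37 (0.128). All 10 rose in the mutant, as nearness to this profile requires.

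Genes of erythroid regulation and of hemoglobin rose as well, where 5.11% of all genes tested were called higher. All 13 tested genes of erythroid regulation and iron or heme uptake were called higher by edgeR, with a median log2 change of 2.25. The changes ran from 0.75 for Tfrc, 1.01 for Zfpm1 and 1.64 for Tal1 to 2.49 for Hemgn. Among them Gata1, the master erythroid factor, rose by 2.26 (SE 0.25), Klf1, the activator of adult and embryonic globin genes, by 2.28 (SE 0.22), Epor, the erythropoietin receptor, by 2.26 (SE 0.21) and Alas2, the erythroid enzyme that opens heme synthesis, by 2.44 (SE 0.29). The 7 hemoglobin genes were all called higher, with log2 changes from 1.49 for Hbb-bs to 2.77 for Hba-a2 and a median of 2.50, while limma-voom called 6 of the 7. Between these ends lay Hbb-bt at 2.20 (SE 0.56), Hbb-y at 2.45, Hbb-bh1 at 2.50, Hba-a1 at 2.52 and Hba-x at 2.69. The call of Hbb-bt was lost under limma-voom and without mutant replicate 4 or any WT replicate (adjusted p up to 0.120), and its log2 change was 1.505 without mutant replicate 1. Reads of the near-identical Hba-a1 and Hba-a2, and of Hbb-bs and Hbb-bt, may be split uncertainly between the copies.

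Markers of other blood and heart cells were read beside these values, with the shares over all genes tested at 5.11% called higher, 3.50% called lower and 9.52% with every mutant above every WT sample. Of 10 megakaryocyte and platelet genes, 2 were called higher by edgeR, 6 by DESeq2 and 0 by limma-voom, and 6 had all mutant samples above all WT samples. An unadjusted edgeR p under 0.05 was found for 9 of the 10, all higher, against 3607 of all 14451 genes in either direction. The median log2 change of the 10 genes was 1.19. Their summed level was 36.9 to 58.0 CPM in WT and 63.1 to 198 CPM in the mutant, with mutant replicate 1 the highest, and Pf4, platelet factor 4, averaged 8.04 ± 2.04 and 20.5 ± 18.6 CPM. The mutant values of Pf4 were 48.2, 11.5, 8.34 and 13.9 CPM, and without mutant replicate 1 its log2 change went from 1.34 to 0.48, neither of them called. Of 12 macrophage and leukocyte genes only 3 passed the filter and 1 was called higher. It was Csf1r, the receptor for macrophage colony-stimulating factor (log2 change 1.08, SE 0.18, edgeR adjusted p = 0.00657). The list summed to 18.7 to 25.7 CPM in WT and 22.2 to 31.7 CPM in the mutant. Lyz2 was the largest part of this sum in every sample, at 15.2 ± 3.23 CPM in WT and 12.3 ± 2.16 CPM in the mutant. Its log2 change of -0.31 was not called, nor was that of Mrc1 at 0.11. The genes that did not pass the filter each averaged higher in the mutant, at up to 1.29 CPM (Fcer1g). The 10 endothelial and endocardial genes included 1 called lower by edgeR, 2 by DESeq2 and 1 by limma-voom, and 5 of the 10 had an unadjusted edgeR p under 0.05, 0 of them higher, where 3607 of all 14451 genes had such a p in either direction. They summed to 1088 to 1174 CPM in WT and 968 to 1052 CPM in the mutant, every mutant sample below every WT sample. Taken gene by gene, 1 of the 10 had every mutant sample below every WT sample, as had 1365 of all 14451 genes tested. The 12 cardiomyocyte genes summed to 35331 to 37617 CPM and 33613 to 37150 CPM. None of 8 visceral endoderm and liver genes passed the filter, and their sum was 1.36 to 2.22 CPM in WT and 1.24 to 8.31 CPM in the mutant. Of their defining markers, the macrophage gene Adgre1 was at 0 counts in all WT samples and at 1 to 5 counts in the mutant, and albumin (Alb) held at most 4 counts in any sample. Afp, the alpha-fetoprotein gene of visceral endoderm, held 63, 32, 2 and 0 counts in mutant replicates 1 to 4 against 1 to 4 in WT, so that it was high in 2 mutant samples. No gene of these lists was at 0 counts in all samples. The part of these other cells in the change of the 8 red-cell genes was not tested.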

How the data were processed

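Polyadenylated RNA of ventricles, isolated with a PicoPure kit, was made into NEBNext Ultra libraries and read as single reads on a HiSeq2500, per the labels. Expected counts per gene, unscaled, were deposited by the authors for all samples in a single table. The submitters' processing notes name cutadapt, RSEM 1.3.1 and GRCm38, while the aligner and the use of strand are not given in the sources used here. RSEM shares reads that fit several genes, so copies of a gene are uncertain. No column lay outside the 8 samples. Symbols were matched for 53274 of 53465 genes. Expected counts were rounded and tested with edgeR 4.0.16 in R 4.3.3 (TMM, filterByExpr by genotype, quasi-likelihood test, Benjamini-Hochberg adjustment over 14451 genes, threshold 0.05), and the code was tested on simulated data. The SE is the log2 change divided by the square root of F. Profiles used log2 CPM with a prior count of 2. The 8 genes and all lists were chosen with earlier results of these data known, and the text names the 8 genes, their complex partners and relatives, chief erythroid genes and the nearest profiles, apart from a few genes that are not reported here and were left out of the lists. Other fits tried used DESeq2 1.42.0, voom in limma 3.58.1, RLE and upper-quartile scaling, other filters (none, or at least 10 counts in every sample), library sizes without hemoglobin and mitochondrial genes, a replicate block and each sample left out. Ratios, shares and figures were made with Python 3.11.15, pandas 2.3.3 and matplotlib 3.10.9.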

Additional observations from a re-analysis of the deposited data

Results flagged for a closer look

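Of 82 groups of 4 samples checked for a sample far from the others, 5 passed Dixon's 95% limit for the gap to the nearest sample over the range, where chance gives about 4.1. Epb42 in WT replicate 2 was one, at 14.7 CPM against 11.2 to 11.4 CPM in the other WT samples (gap over range 0.942). Ermap in the same sample reached 3.84 per 1000 hemoglobin counts against 3.25 to 3.31 (0.898). In WT replicate 1, the share of Epb42 against Tgm2 was 3.02%, below 3.70% to 3.81% in the others (0.856). The summed megakaryocyte and platelet list was 198 CPM in mutant replicate 1 against 63.1 to 73.3 CPM in the other mutant samples (0.925). The summed wider red-cell membrane list was also highest in mutant replicate 1, at 7934 CPM against 7042 to 7162 CPM in the other mutant samples (0.865).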

How the results depend on the processing

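All 8 red-cell membrane genes stayed called higher under each of 16 alternatives, including without mutant replicate 1 and without mutant replicate 2, with log2 changes from 1.58 (Sptb) to 2.77 (Rhag) and adjusted p of at most 0.0179. Counts of calls were less stable. Over all genes, the replicate block gave 398 higher and 218 lower, and leaving out a sample gave 335 to 1368 higher and 174 to 1155 lower, with the most calls without mutant replicate 1. The gene called lower in the wider list became 2 under upper-quartile scaling, 0 under the replicate block and 0 to 2 without a sample. Among the relatives, the block left 0 higher and 1 lower, and leaving out a sample gave 0 to 2 higher and 0 to 3 lower. Same-numbered samples did not deviate together (correlations of -0.0911 to 0.0187, and 0 of 4 correlated best with their own number). With 4 samples per genotype, these values cannot exclude a shared origin such as a litter or batch. Changes that crossed zero when a sample was left out ran from -0.0076 to 0.043 for Tmod1, -0.0067 to 0.85 for Ackr1, -0.15 to 0.0051 for Sptbn1, -0.15 to 0.053 for Slc4a3, -0.0077 to 0.14 for Tgm2 and -0.12 to 0.0052 for Tnnt2, none of them called. Apart from samples left out, 347 single-gene comparisons kept direction and call, 3 lost the call (Ank3 and Add1 with the block, Hbb-bt with limma-voom) and Slc14a1 gained it under DESeq2 and with no filter. The call of Ank3 was lost without mutant replicates 3 or 4 or any WT replicate, that of Add1 without mutant replicates 3 or 4 or WT replicates 1, 3 or 4, and those of Add3 and Hbb-bt without mutant replicate 4 or any WT replicate, with adjusted p up to 0.0931, 0.0740, 0.0744 and 0.120, while Slc14a1 was called without mutant replicate 2. The causes were not tested. In WT, Rhag and Kel held 100 to 173 counts a sample, which limits the precision of their levels.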
